A study of Mus musculus with 3 samples.

Results

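The genes described here are 9 adhesion genes of 32285 in the count tables. They are the integrin alpha subunit genes *Itgam*, *Itgal*, *Itgax*, *Itga4* and *Itgav*, the beta subunit genes *Itgb2* and *Itgb1*, the hyaluronan receptor gene *Cd44*, and *Icam1*, which encodes a ligand of the leukocyte integrins. They were chosen by symbol as a family of surface adhesion receptors, and all 9 were found. RNA of single bone marrow-derived macrophages (BMDMs) was measured by droplet-based 3′ sequencing, in which each captured transcript carries a cell barcode and a unique molecular identifier (UMI). The cells came from pooled bone marrow of female C3H/HeN mice aged 6 to 8 weeks and were differentiated in L929 cell-conditioned medium. UI cells received PBS and were collected at 4 hours, LP1 cells had 1 hour and LP4 cells 4 hours of purified *Borrelia burgdorferi* lipoproteins (*Bb*LP) at 1 µg/mL, and none carried a genetic change. Each condition is 1 library pooled from 3 wells. No control was collected at 1 hour, so LP1 and UI differ in both treatment and time of collection.

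Integrins are pairs of one alpha and one beta chain that tie the cell to matrix or to other cells, and they switch between a resting and an active shape when talin and kindlin bind the beta chain inside the cell. The beta 2 integrins, made of the *Itgb2* product with CD11a, CD11b or CD11c, are the leukocyte family, used by macrophages to bind ICAM-1 and complement-coated particles. The beta 1 and alpha V integrins bind matrix proteins such as fibronectin, vitronectin and osteopontin. CD44 binds hyaluronan and is linked to actin by ezrin, radixin and moesin.

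The 3 libraries differed in depth, so levels are given as UMIs per 1000000 UMIs of the kept cells (CPM). 6071 UI, 5065 LP1 and 4670 LP4 cells were kept, with a median of 5133, 9343 and 11784 UMIs per cell. Kept barcode sequences shared between libraries numbered 9 for UI and LP1, 7 for UI and LP4 and 3 for LP1 and LP4. All 10 macrophage markers examined, among them *Adgre1* and *Csf1r*, had at least 10 CPM in every library, and the summed level of these markers was 11772.5, 12286 and 11942 CPM in UI, LP1 and LP4. Most of this sum was *Lyz2*, at 9209, 9684 and 8717 CPM. Single markers moved both ways, such as *Csf1r* at 769, 522 and 421 CPM and *Cd14* at 291, 597 and 1399 CPM. The 8 lymphocyte markers summed to 1.56 to 3.08 CPM per library. The conditions have no replicate libraries, so none of the differences could be tested. Every interval below is an exact 95% interval that covers counting error only, not the spread between cultures. Intervals of CPM, of ratios and of subunit shares of UMIs also leave out the spread between cells, and are too narrow for it. A gene is called higher or lower when its ratio passes 1.5-fold, which is 0.58 on the log2 scale, among genes with at least 10 CPM in 1 of the libraries compared.

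At 4 hours of *Bb*LP, *Cd44* and *Itgav* were at about 50% of their UI levels, *Itgam* was 1.42-fold higher, and *Icam1* was within 1.25% of UI. In LP1 over UI no member passed 1.5-fold. Of the 9 members, 0 were higher and 2 lower in LP4 over UI, where 20.2% of the 8019 genes tested were higher and 23% lower. The same 2 members were lower and none higher in LP4 over LP1, where 16.6% of 7956 genes were higher and 18.1% lower. For LP1 over UI the background was 4.12% higher and 2.74% lower of 7747 genes. The share of members lower in LP4 was thus near the share of all genes. The median log2 ratio of the members was -0.02 for LP1 over UI, -0.04 for LP4 over UI and 0.04 for LP4 over LP1, beside -0.02, -0.07 and -0.06 for all genes tested. LP4 over UI and LP4 over LP1 share the LP4 library, and LP1 over UI and LP4 over UI share the UI library.

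**Figure D1:**
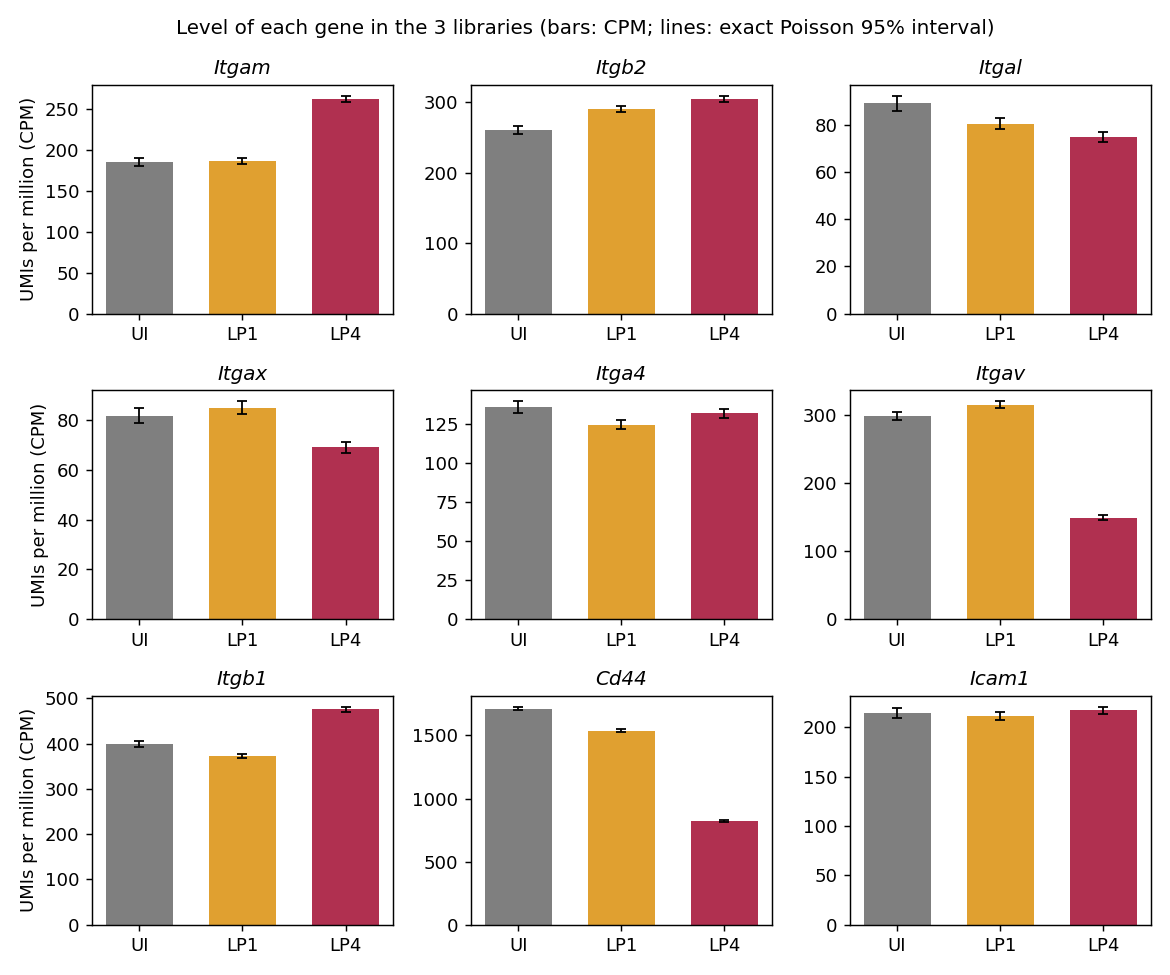
Level of each of the 9 genes in UI, LP1 and LP4, as CPM of the kept cells, with exact Poisson 95% intervals as lines. *Cd44* is 10% lower in LP1 than in UI and far lower in LP4. *Itgav* is at about the same level in UI and LP1 and far lower in LP4. *Itgam* is highest in LP4, and *Icam1* is near 214 CPM in all 3 libraries.

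*Cd44* had the highest level of the 9 genes in every library by UMI count. Its level was 1713 CPM in UI, 1539 in LP1 and 822 in LP4, and the 3 Poisson intervals did not overlap. The log2 ratio was -0.15 (-0.17 to -0.14) for LP1 over UI and -1.06 (-1.08 to -1.04) for LP4 over UI, a level 52% below UI. The rank of *Cd44* among all genes by CPM was 60 in UI, 63 in LP1 and 172 in LP4. The gene lies at chr2:102811141-102901665 of GRCm38 on the minus strand, and its 9 annotated transcripts hold up to 19 exons. Counts from the 3′ end do not tell the CD44 splice forms apart.

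*Itgav* encodes the alpha V chain, which binds RGD-containing ligands such as vitronectin and osteopontin. It was at 298 CPM in UI, 315 in LP1 and 149 in LP4, and the level at 1 hour was not below UI. The log2 ratio of LP4 was -0.9996 (-1.04 to -0.96) over UI and -1.08 (-1.11 to -1.04) over LP1. *Itgav* lies at chr2:83724397-83806916 on the plus strand. Its antisense neighbour Gm13684 overlaps it and had 27.0, 19.1 and 2.78 CPM, also lowest in LP4. The pair lies on opposite strands and was counted as separate genes. The sources used here do not state how reads of the overlap were assigned.

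The beta 2 family moved unevenly. *Itgam* encodes CD11b, the alpha chain of Mac-1, the macrophage receptor for iC3b and ICAM-1. It was at 185.1 CPM in UI, 186.5 in LP1 and 262 in LP4. UI and LP1 overlapped and LP4 stood above both, with a log2 ratio over UI of 0.50 (0.46 to 0.54). This is below 1.5-fold as CPM and past it with TMM scaling (0.67) or median-of-ratios scaling (0.71). Under these scalings the median of all genes in LP4 over UI moved up by 0.17 and 0.21, and the split of genes past 1.5-fold went from 46.7% higher to 61.9% and 64.9% higher. Across clusters *Itgam* was highest in the small neutrophil-like cluster described below, and the 10 neutrophil markers summed to 373, 277 and 522 CPM in UI, LP1 and LP4. Within macrophage-like clusters alone the log2 ratio of *Itgam* was 0.49, as large as over all cells.

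*Itgb2*, the beta chain (CD18) common to this family, was at 260 CPM in UI, 290.0 in LP1 and 304 in LP4, with intervals that did not overlap. Its log2 ratio was 0.16 (0.12 to 0.19) at 1 hour and 0.23 (0.19 to 0.26) at 4 hours. The other alpha partners were lower in LP4. *Itgal*, the CD11a chain of LFA-1, was at 89.0, 80.4 and 74.6 CPM in UI, LP1 and LP4, and its log2 ratio of LP4 over UI was -0.25 (-0.32 to -0.19). *Itgax*, the CD11c chain, was at 81.9, 85.1 and 69.1 CPM, with -0.25 (-0.31 to -0.18) for LP4 over UI. Neither passed 1.5-fold, and with median-of-ratios scaling both were within 0.05 of 0. *Itgal*, *Itgam* and *Itgax* lie on the plus strand of chromosome 7, at chr7:127296260-127335138, chr7:128062640-128118491 and chr7:128129547-128150657. *Itgax* starts 11056 bp after *Itgam* ends, and these neighbours had log2 ratios of opposite sign in LP4 over UI. *Itgb2* lies at chr10:77530252-77565708.

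*Itgb1*, the beta chain of the fibronectin and collagen receptors, was at 400 CPM in UI, 373 in LP1 and 476 in LP4. LP1 was lowest and LP4 highest, without overlap of the intervals, and the log2 ratio of LP4 over UI was 0.25 (0.22 to 0.28). *Itga4*, the alpha chain of VLA-4 that binds VCAM-1 and fibronectin, was at 136, 125 and 132 CPM in UI, LP1 and LP4. Its log2 ratio of LP4 over UI was -0.04 (-0.09 to 0.01) as CPM and changed sign to 0.13 with TMM and 0.17 with median-of-ratios scaling, so no direction is given. *Itgb1* lies at chr8:128685654-128733200 and *Itga4* at chr2:79255426-79333123.

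*Icam1* encodes the endothelial and leukocyte ligand of LFA-1 and Mac-1, an immunoglobulin superfamily protein well known to be induced by inflammatory signals in many cell types. It was at 214 CPM in UI, 211 in LP1 and 217 in LP4, the narrowest range of the 9 genes relative to its level. The log2 ratio was -0.02 (-0.06 to 0.02) for LP1 over UI and 0.02 (-0.02 to 0.06) for LP4 over UI as CPM, and 0.19 and 0.22 for the latter with TMM and median-of-ratios scaling. All of these are under 1.5-fold. In UMIs per cell *Icam1* went from 1.26 in UI to 2.19 in LP1 and 2.85 in LP4, while the mean UMIs of all genes per cell went from 5879 to 10360 and 13148. More RNA per cell and deeper capture or sequencing cannot be told apart here. *Icam1* lies at chr9:21015985-21028817.

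**Figure D2:**
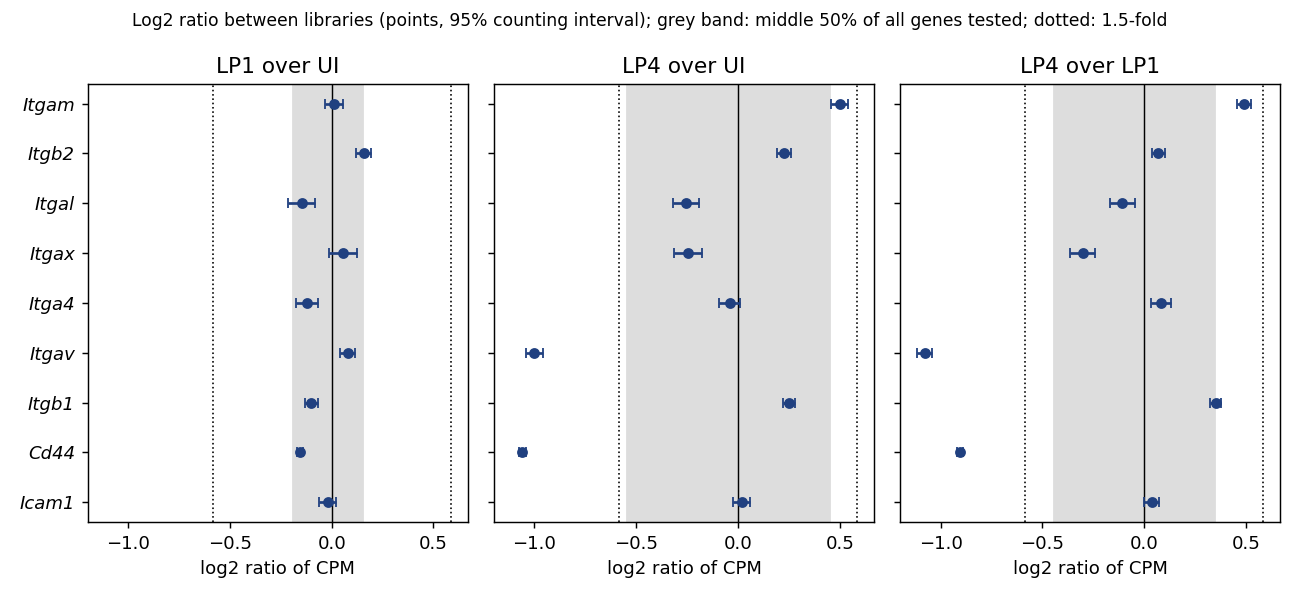
Log2 ratio of CPM between libraries for the 9 genes, with 95% counting intervals, the 1.5-fold limits as dotted lines and the middle 50% of all genes tested as a grey band. In LP1 over UI all 9 points lie within 0.16 of 0, and in LP4 over UI *Itgav* and *Cd44* lie below the lower limit and *Itgam* at 0.50.

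The promoters of the 3 members with the largest ratios in LP4 over UI and of *Icam1* are shown because these members differed in behaviour. RefSeq promoter sequences of GRCm38.p6, a C57BL/6J reference and not the C3H/HeN genome, were given for 7 of the 9 members, and not for *Itgb2* and *Itgal*. Each line is the 250 bases before the start site, in the sense of the gene, and capitals mark matches on either strand to the letters GAGGAA (a purine-rich core bound by ETS factors such as PU.1), GGGCGG (the GC box) or GGAAATTCC (a kappa B-type site).
Icam1, chr9:21015690-21015939, plus strand: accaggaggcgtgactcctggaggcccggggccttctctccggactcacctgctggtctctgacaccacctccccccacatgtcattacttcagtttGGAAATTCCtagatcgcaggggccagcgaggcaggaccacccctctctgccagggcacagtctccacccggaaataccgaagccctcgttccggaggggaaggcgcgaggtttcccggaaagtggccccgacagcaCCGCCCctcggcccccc
Itgam, chr7:128062390-128062639, plus strand: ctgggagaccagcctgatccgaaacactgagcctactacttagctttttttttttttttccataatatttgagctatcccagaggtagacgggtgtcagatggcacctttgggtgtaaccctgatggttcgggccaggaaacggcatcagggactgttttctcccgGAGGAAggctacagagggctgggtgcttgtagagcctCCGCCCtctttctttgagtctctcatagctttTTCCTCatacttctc
Itgav, chr2:83724147-83724396, plus strand: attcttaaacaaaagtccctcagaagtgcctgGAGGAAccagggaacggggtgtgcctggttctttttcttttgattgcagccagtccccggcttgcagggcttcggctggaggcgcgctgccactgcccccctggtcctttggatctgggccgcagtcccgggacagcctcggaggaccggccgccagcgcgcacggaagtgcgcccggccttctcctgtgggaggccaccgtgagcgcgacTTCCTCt
Cd44, chr2:102901666-102901915, minus strand: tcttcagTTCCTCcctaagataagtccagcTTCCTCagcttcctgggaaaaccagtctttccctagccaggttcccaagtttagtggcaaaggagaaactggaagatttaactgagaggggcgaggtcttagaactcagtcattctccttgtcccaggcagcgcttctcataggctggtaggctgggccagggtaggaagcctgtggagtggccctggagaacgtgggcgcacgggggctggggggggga
GAGGAA occurred 2 times each before *Itgam*, *Itgav* and *Cd44* and 1 time before *Itgb1*. It did not occur in the *Icam1*, *Itgax* and *Itga4* windows, while 23.3% of the 32851 promoters of this length hold it. GGGCGG occurred before *Icam1*, *Itgam*, *Itga4* and *Itgb1* and in 32.7% of all promoters. GGAAATTCC began 153 bases before the *Icam1* start, and 0.286% of all promoters hold it. This last motif was chosen after the *Icam1* sequence was seen. The classical NF-kB consensus, searched on both strands, was in none of the 7 member windows and in 5.93% of all promoters. TGANTCA, the AP-1 site, was found before *Itgax* alone of the 7 and in 6.75% of all promoters. CCAAT, in 33.8% of all promoters, was found before *Itgax* alone, and TATAAA, in 12.4%, before none of the 7. These matches say only that the letters are in the window, and *Itgam* holds the same GAGGAA count as *Itgav* and *Cd44*, whose ratios had the opposite sign.

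The make-up of the integrin pool is a measure within each library that does not depend on the scaling between libraries. UMIs of 3′ libraries come from transcript ends and were not divided by gene length, so shares are followed across libraries and are not read as an order of protein chains. Among the UMIs of the 18 alpha subunit genes, *Itgam* took 13.5% in UI (exact binomial interval 13.2 to 13.8), 14.3% in LP1 and 23.7% in LP4 (23.3 to 24.0). *Itgav* took 21.7% in UI, 24.2% in LP1 and 13.5% in LP4. *Itga5*, which encodes the main fibronectin receptor alpha chain and is not among the 9, had the largest share in each library, at 36.1%, 32.2% and 27.7%. *Itga4* went from 9.90% in UI to 11.9% in LP4, and *Itgal* and *Itgax* stayed between 5.97% and 6.74% in all 3 libraries. A share also rises when other genes of the pool fall. By CPM *Itga4* was at 136 in UI and 132 in LP4, and *Itgam* was 1.42-fold higher in LP4. Among the 4 alpha chains that pair with beta 2, *Itgam* held 52.0%, 52.9% and 64.5% in UI, LP1 and LP4. In the same order *Itgal* held 24.98%, 22.8% and 18.4%, and *Itgax* 23.0%, 24.2% and 17.0%. Among the 9 beta subunit genes *Itgb1* held 47.3%, 45.4% and 51.3%, and *Itgb2* 30.8%, 35.3% and 32.8%.

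**Figure D3:**
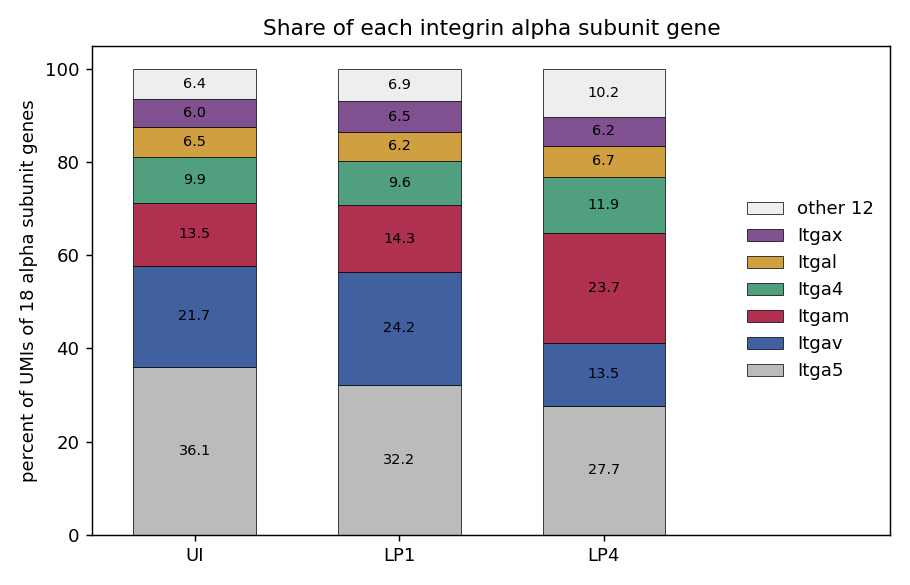
Percent of the UMIs of 18 integrin alpha subunit genes that each gene took in UI, LP1 and LP4, as stacked bars that sum to 100. The *Itgam* segment is largest in LP4 and the *Itgav* and *Itga5* segments are smallest there.

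The share of cells with a UMI depends on depth, so cells were thinned to 2000 UMIs each, leaving out 122 UI, 13 LP1 and 45 LP4 cells with fewer. At this depth *Itgam* was seen in 28.7% of UI cells (27.6 to 29.9), 30.05% of LP1 cells and 38.0% of LP4 cells (36.6 to 39.4). *Itgav* was seen in 38.0%, 39.5% and 24.0% of cells in UI, LP1 and LP4, and *Cd44* in 91.3%, 89.7% and 77.2%. The share of *Icam1*-positive cells was 27.9% (26.8 to 29.1), 26.5% (25.3 to 27.7) and 29.1% (27.8 to 30.5), with overlap between UI and each treated library. *Itgb1* was seen in 52.4%, 51.1% and 59.1% and *Itgb2* in 35.6%, 38.6% and 39.8% of cells in the same order. The values were 16.2%, 14.8% and 14.2% for *Itgal*, 11.1%, 11.8% and 9.38% for *Itgax*, and 23.7%, 21.7% and 20.9% for *Itga4*. Without thinning *Icam1* was seen in 49.2%, 61.6% and 75.2% of cells, an order that the thinned shares and CPM do not show. As a level for free RNA, the neutrophil gene *S100a9* was seen after thinning in 0.236%, 0.0994% and 0.174% of cells outside the neutrophil-like cluster, whose median depths before thinning were 5202, 9369 and 11862 UMIs in UI, LP1 and LP4. A second neutrophil gene, *S100a8*, gave 4.05%, 2.56% and 4.16% of the same cells. All member shares were above these levels over the whole of each library. The variance over the mean of thinned counts, which is 1 for pure counting noise, was 1.705 in UI, 1.81 in LP1 and 1.66 in LP4 for *Icam1*, against 1.10, 1.11 and 1.17 for *Itgam*. It was 2.09, 1.86 and 1.47 for *Cd44* and 1.66, 1.59 and 1.29 for *Itgav*, so *Icam1* was not alone in this.

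For pairs that form one receptor, the share of thinned cells with both UMIs was set beside the product of the separate shares. *Itgax* and *Itgb2* were seen together in 5.70%, 6.35% and 5.64% of cells in UI, LP1 and LP4, beside products of 3.95%, 4.57% and 3.73%. *Itgam* and *Itgb2* were seen together in 10.8%, 12.8% and 17.0%, beside 10.2%, 11.6% and 15.1%. *Itgav* and *Itgb1* were seen together in 20.1%, 20.4% and 13.6%, beside 19.9%, 20.2% and 14.2%.

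Clusters were built without the 9 genes, after centring each gene within its library, and 8 were found at the resolution used. Clusters A to E were macrophage-like, F (921 cells) was cycling-like with *Hist1h1b* and *Top2a* among its leading genes, G (219 cells) was dendritic cell-like by *H2-Aa* and *Cd74*, and H (85 cells) was neutrophil-like by *S100a9* and *Ngp*. The dendritic cell markers leading G were *Cd74* and MHC class II genes, without *Flt3*, *Zbtb46*, *Clec9a* or *Xcr1*. G also held 5 macrophage markers in at least 50% of its cells. Its name thus does not separate dendritic cells from macrophages high in MHC class II. The neutrophil markers leading H were *S100a9*, *Ngp*, *S100a8*, *Mpo*, *Camp* and *Elane*, without *Retnlg*, *Ly6g*, *Ltf* or *Cxcr2*. *Retnlg*, *Ly6g* and *Cxcr2* were under 1 CPM in every library. The name of H thus gives no stage of maturity. Leading genes were *Egr3* and *Apoe* in A (5158 cells), *Fabp4* in B (3253), *Fat3* and *Clec5a* in C (3243), *Csmd1* and *Ccnd1* in D (1794), and *Ctsk*, *Mmp9* and *Itgb3* in E (1133). Cluster levels are descriptions, with no test. A to G held at least 50 cells in every library and were compared between libraries.

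*Itgax* separated the macrophage-like clusters most. It was at 249, 237 and 240 CPM in cluster E in UI, LP1 and LP4, and at 8.42 to 16.8 CPM in A and 10.6 to 12.3 CPM in D. After thinning it was seen in 1.24% to 2.67% of cells of A and D. This lies above the *S100a9* level given above and about at or below the *S100a8* level. In the whole libraries *S100a9* was at 139, 128 and 264 CPM and *S100a8* at 179, 98.3 and 197 CPM in UI, LP1 and LP4. Whether the *S100a8* share outside the neutrophil-like cluster was free RNA or expression in those cells was not tested. *Itgax* in A and D was above background by the *S100a9* level and cannot be told apart from it by the *S100a8* level. In cluster G, named from MHC class II genes, *Itgax* was at 102, 78.2 and 87.1 CPM, below E in each library. *Itgb2* was also highest in E, at 461, 532 and 618 CPM in UI, LP1 and LP4, against 167, 170 and 177 in A. *Itgam* was highest in the neutrophil-like cluster, at 459, 439 and 566 CPM, and next in E at 277, 280 and 393. *Itgav* was lower in E than in D in each library, with 462, 429 and 180 CPM in D and 99.2, 157 and 89.2 in E. *Cd44* was lowest in E among A to G, at 904, 1077 and 549 CPM, and highest in A in UI, at 2086. *Itga4* was highest in A in UI, at 208 CPM, and *Itgal* was lowest in D in each library among A to E, at 50.6, 39.4 and 39.5 CPM.

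**Figure D4:**
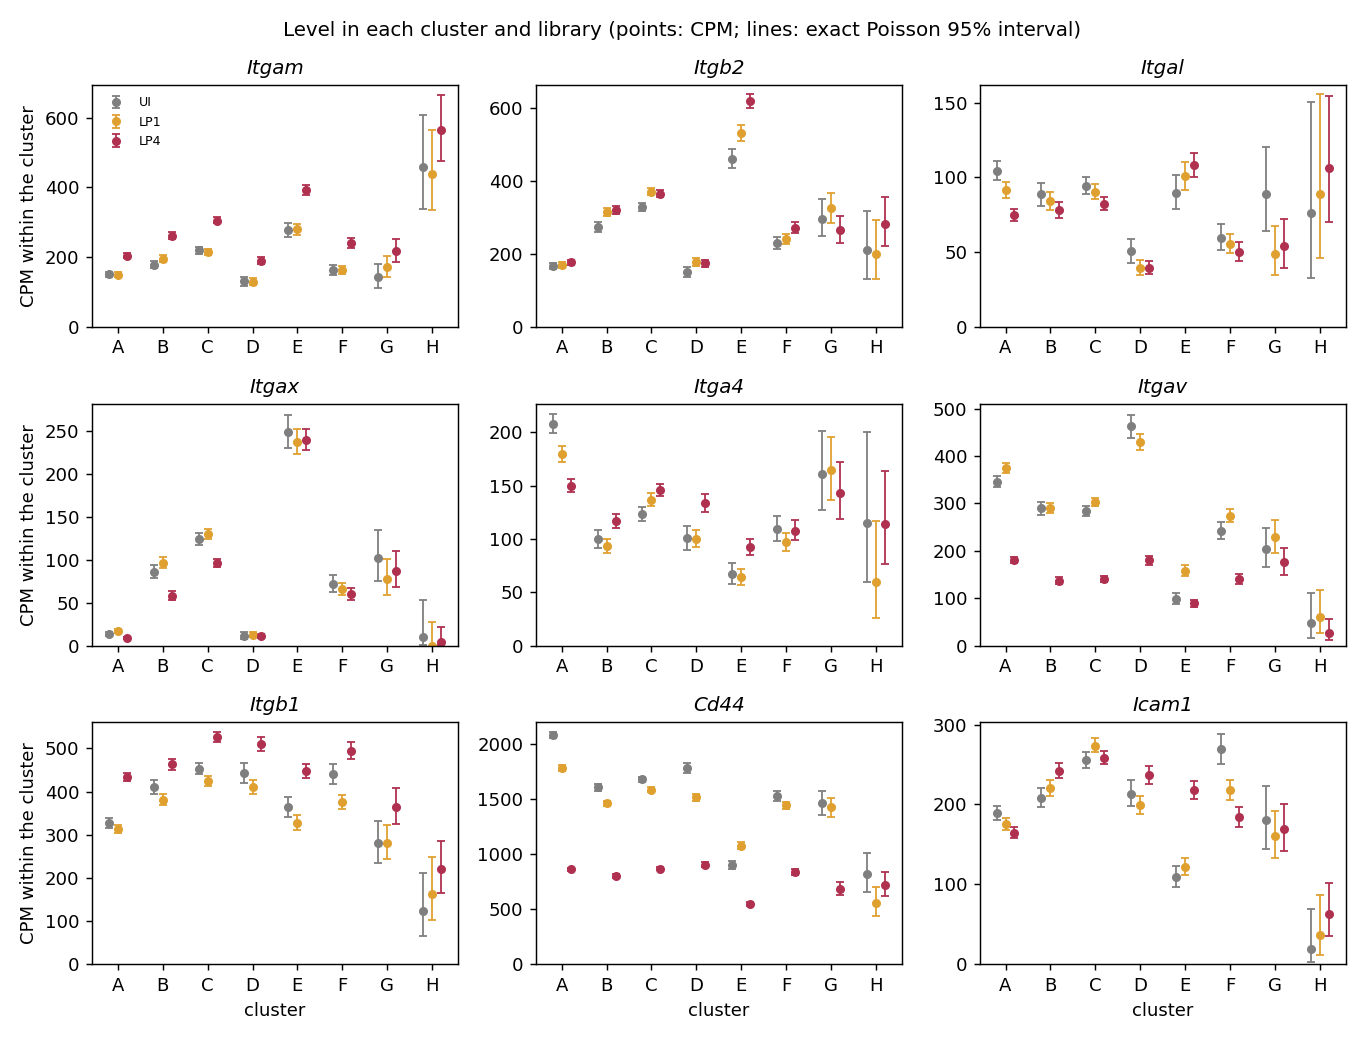
Level of each gene in each of 8 clusters and 3 libraries, as CPM with exact Poisson 95% intervals. *Itgax* and *Itgb2* are highest in cluster E, *Itgav* is low in E and H, and the LP4 points of *Cd44* lie below the UI points in A to G.

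Within clusters, 5 of the 9 members had one sign of the LP4 over UI ratio of CPM in all 7 clusters compared. The share of all genes with one sign in all 7 was not counted. *Itgam* was higher in every one, by 0.43 in A to 0.61 in G on the log2 scale, and *Itgb1* by 0.17 in F to 0.40 in A. *Cd44* was lower in every one, from -1.27 in A to -0.72 in E. *Itgav* was below 0 in every one, from -1.36 in D to -0.15 in E, where the interval (-0.37 to 0.06) held 0. *Itgax* ranged from -0.66 in A, where it may be background by the *S100a8* level, to -0.06 in E. At a coarser resolution 7 members and at a finer resolution 4 members had one sign in all clusters compared. TMM scaling would move every LP4 over UI ratio up by 0.17, which turns *Itgav* in E and *Itgax* in D (-0.07) and E positive. *Itgb2* in G (-0.16), its only cluster below 0, would turn positive too. The set of members with one sign thus depends on the scaling.

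*Icam1* differed between clusters although its total hardly moved. In cluster E it was at 109 CPM in UI, 122 in LP1 and 218 in LP4, and LP4 lay above both others without overlap. In the cycling-like cluster F it was at 269, 218 and 184 CPM, so UI was highest there. Its log2 ratio of LP4 over UI was 1.00 (0.81 to 1.18) in E, 0.22 in B, 0.15 in D, 0.02 in C, -0.09 in G, -0.20 in A and -0.55 (-0.69 to -0.41) in F. The share of thinned cells with an *Icam1* UMI was 17.6%, 17.7% and 30.6% in E and 39.0%, 33.0% and 25.7% in F. At a finer resolution the cluster led by the same genes as E had 0.66 (0.49 to 0.82). *Itga4* likewise had -0.47 in A and 0.47 in E, which brought its levels in these clusters nearer to each other in LP4.

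**Figure D5:**
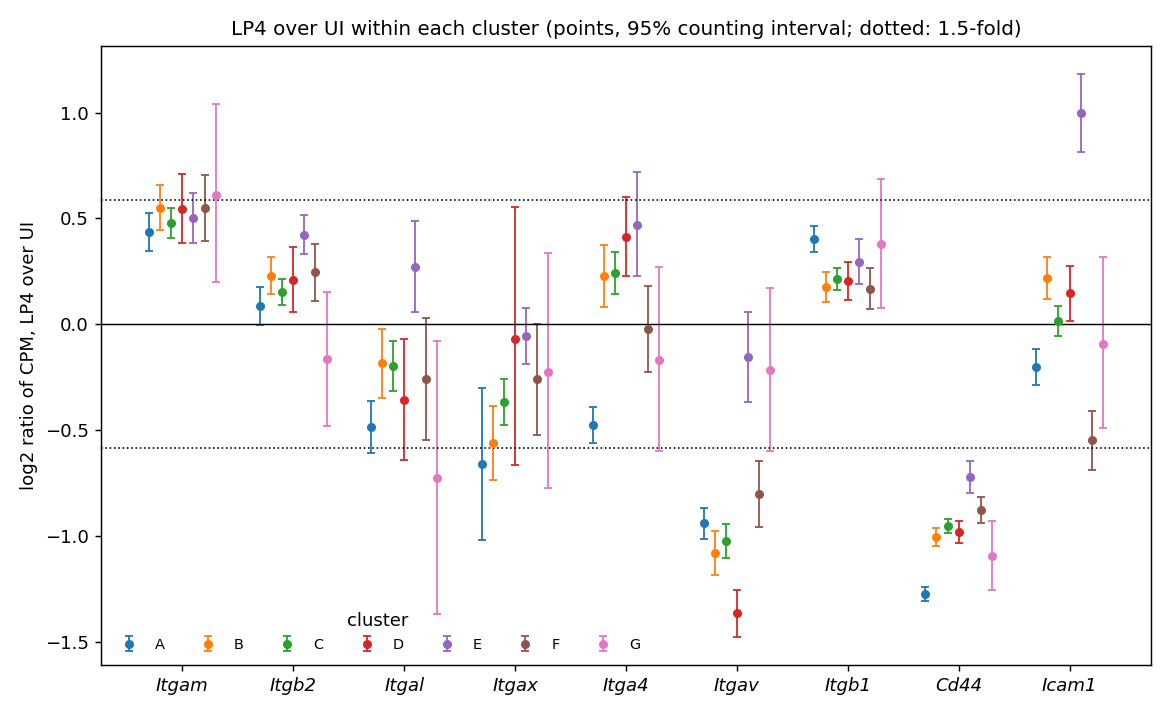
Log2 ratio of CPM of LP4 over UI for each gene in clusters A to G, with 95% counting intervals and the 1.5-fold limits as dotted lines. *Itgam* and *Itgb1* are above 0 and *Cd44* below 0 in all 7, and *Icam1* runs from -0.55 in F to 1.00 in E.

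The genes with the most similar pattern were sought over the 21 combinations of library and cluster A to G, by Pearson's r of log2(CPM + 1) among 6091 genes. The points of one library share its depth, and no p is given. *Cd44* was most like *Cdc42ep4* (r = 0.98) and *Sestd1* (0.96), and *Itgav* most like *Bcl2l11* (0.95) and *Hivep2* (0.93). *Itgam* was most like *Gng12* (0.93), and *Itgax* like *Mmp12* (0.94) and *Itgb2* (0.93). The r takes in differences between clusters as well as between libraries. Over whole libraries *Mmp12* rose, at 536, 854 and 998 CPM in UI, LP1 and LP4, while *Itgax* was lowest in LP4. *Itgb2* was most like *Ccdc88a* (0.94) and *Mmp9* (0.93), *Itgb1* like *Slc35e4* (0.95), *Itga4* like *Picalm* (0.90), and *Itgal* like *Cmklr1* (0.88). *Icam1* had the weakest best match, *Lrrk2* at 0.82. Between members r was 0.88 for *Itgav* and *Cd44*, 0.81 for *Itgam* and *Itgb2*, and -0.85 for *Itgam* and *Itgav*.

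The genes around the 9 members in the adhesion pathway were counted in the same way for LP4 over UI. Of 20 other integrin subunit genes 7 were measured at 10 CPM, with 2 higher and 2 lower. For these and the lists that follow, the share over all genes tested was 20.2% higher and 23% lower. It was 26.5% higher and 16.3% lower with TMM, and 27.8% and 15.0% with median-of-ratios scaling. *Itgb8*, whose product pairs with alpha V, went from 1.18 CPM in UI to 14.4 in LP4, and *Itga1*, a collagen receptor chain, from 17.3 to 51.0. *Itga5* was lower at 307 against 495 CPM and *Itgb3*, another partner of alpha V, at 10.3 against 16.7. These 2 lower calls were lost with TMM and with median-of-ratios scaling. Of 18 ligand genes 7 were measured, with 4 higher and 1 lower. *Vcan*, a proteoglycan that binds hyaluronan, went from 22.4 CPM in UI and 17.2 in LP1 to 375 in LP4. *Spp1*, which encodes osteopontin, a ligand of alpha V integrins, was at 397, 722 and 882 CPM in UI, LP1 and LP4. *Thbs1* was at 37.3, 23.8 and 90.0 CPM. *Mfge8*, which links apoptotic cells to alpha V integrins, was lower in LP4, at 96.0 against 157 CPM in UI, a call lost under both other scalings.

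Of 21 integrin activation genes 18 were measured in LP4 over UI, with 2 higher and 10 lower. With TMM scaling 6 and with median-of-ratios scaling 5 were lower, and 2 and 4 were higher. *Rap1a*, a small GTPase that turns integrins on, was higher, at 162 against 99.975 CPM in UI. *Rasgrp3* and *Rapgef1*, exchange factors for Rap proteins, were lower, at 4.95 against 13.0 CPM and 63.6 against 133. *Cytip*, a regulator of the beta 2 activator cytohesin-1, was at 8.60 against 20.7 CPM. Talin (*Tln1*) was at 824, 681 and 450 CPM and kindlin-3 (*Fermt3*) at 182, 161 and 111 in UI, LP1 and LP4. Their log2 ratios of LP4 over UI were -0.87 and -0.72, and the lower call of *Fermt3* was lost under both other scalings. Other genes of the list rose as CPM without passing 1.5-fold, such as *Rap1b* (0.40) and *Rapgef2* (0.41). These 4 genes were named after their values were seen.

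Of 21 measured signaling genes 5 were higher and 5 lower in LP4 over UI, which became 7 and 4 with TMM and 7 and 3 with median-of-ratios scaling. The kinase gene *Src* was higher, at 89.5 against 35.8 CPM in UI, as was the adaptor *Crkl*. *Vav3*, a guanine nucleotide exchange factor, was lower, at 181 against 589 CPM, as were *Parvg* and *Tyrobp*. Of 10 measured genes of CD44 linkage and shedding 3 were higher and 1 lower. *Mmp14*, a membrane protease that can shed CD44, went from 20.3 CPM in UI to 171 in LP4, *Ezr* (ezrin) from 57.1 to 251 and *Adam8* from 159 to 255, while *Stab1*, a hyaluronan and scavenger receptor, was at 77.4 against 163. Of 12 membrane partners 2 were higher and 3 lower. The tetraspanin genes *Cd53* and *Cd9* were higher, *Cd37* and *Cd82* lower, and *Plaur*, the urokinase receptor, was at 62.0 against 177 CPM. Under both other scalings the *Cd82* call was lost and the split became 3 higher and 2 lower. In LP1 over UI 6 of all these genes passed 1.5-fold, 3 higher (*Spp1*, *Itgb1bp1* and *Rasgrp3*) and 3 lower (*Mfge8*, *Thbs1* and *Tyrobp*), beside 4.12% higher and 2.74% lower of all genes tested. Under both other scalings the calls of *Thbs1* and *Tyrobp* were lost and *Adam8* and *Cd9* passed 1.5-fold, for 5 higher and 1 lower. All genes tested moved the same way, to 5.499% higher and 1.794% lower with TMM in LP1 over UI. With median-of-ratios scaling these shares were 5.589% and 1.756%. In the order of the lists above, 6, 7, 18, 21, 10 and 12 genes were measured in LP1 over UI. The median log2 ratio of LP4 over UI was -0.42 for the measured other subunits, 1.00 for the ligands, -0.66 for the activation genes, 0.085 for the signaling genes, 0.24 for CD44 linkage and shedding and 0.12 for the membrane partners, beside -0.07 for all genes tested.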

How the data were processed

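Single-cell RNA sequencing was performed on BMDMs with the 10x 3′ v3.1 kit, 1 library per condition, so no paired or replicated comparison was possible. The authors aligned reads to mm10 with Cell Ranger (7.1.0 per the submitters' processing notes) and deposited raw UMI counts, not normalized, in the barcodes called as cells. Whether intronic reads or strand entered the counts is not given in the sources used here. Cells with over 500 UMIs, over 500 genes and under 5% mitochondrial UMIs were kept, which left 35688939 UMIs in UI, 52475723 in LP1 and 61402275 in LP4. UMIs were summed over cells and scaled to CPM. Intervals were exact Poisson (CPM), conditional binomial (ratios) and binomial (shares) at 95%. Clustering used 2000 variable genes of 5285 without the members, 30 components, 20 neighbours and Leiden resolution 0.5 (alternatives 0.3 and 0.8). A cluster took a name from at least 3 markers among its 10 leading genes, or, for macrophage-like, from at least 3 macrophage markers seen in at least 50% of its cells. Scrublet marked at most 0.0428% of the cells of a library as doublets and had not worked, so no doublets were removed. The members and gene lists were chosen with earlier results of these data known. Named genes were the members, up to 3 per list and direction with the largest ratios of LP4 over UI past 1.5-fold, and up to 2 most similar genes per member (20 CPM or more). A gene that this rule named is not reported here. Gene positions are from GENCODE vM21. On simulated counts, 100% of 200 changed genes had the right direction in each comparison. These counts held Poisson noise alone and the planted changes were past 1.5-fold, so the check could hardly fail. It does not cover the spread between cultures. TMM factors came from edgeR 4.0.16 (R 4.3.3), clusters from scanpy 1.11.5 and leidenalg 0.10.2, and intervals from scipy 1.17.1, run under Python 3.11.15.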

Additional observations from a re-analysis of the deposited data

Results flagged for a closer look

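As CPM these ratios differed in sign between clusters of the same libraries, with both counting intervals clear of 0 and a gap of over 1.5-fold. TMM and median-of-ratios scaling would move LP4 over UI ratios up by 0.17 and 0.21, and LP1 over UI ratios by 0.071 and 0.076. Under either, the intervals of *Itgal* in G (upper end -0.077) and *Itgav* in D (upper end -0.015) would hold 0. With median-of-ratios scaling, a shift of 0.13 in LP4 over LP1, that of *Icam1* in F (upper end -0.115) would too. The differences between clusters were not tested, since each condition is 1 library. *Icam1* in LP4 over UI had a log2 ratio of 1.00 (0.81 to 1.18) in cluster E and -0.55 (-0.69 to -0.41) in the cycling-like cluster F, and in LP4 over LP1 it had 0.83 in E and -0.24 in F. *Itga4* in LP4 over UI had 0.47 in E and -0.47 in A, and in LP4 over LP1 it had 0.53 and -0.26. *Itgal* in LP4 over UI had 0.27 in E and -0.72 (-1.37 to -0.08) in the small dendritic cell-like cluster G of 219 cells. *Itgav* in LP1 over UI had 0.67 in E and -0.11 in D. Cluster E, led by *Ctsk*, *Mmp9* and *Itgb3*, was the one with the higher ratio in each of these. At the finer resolution the cluster led by the same genes was highest for only 1 of these ratios, *Icam1* in LP4 over UI (0.66). For *Icam1* in LP4 over LP1 that cluster had 0.58, beside 0.59 in the highest cluster. In LP4 over UI it had 0.30 beside 0.31 for *Itga4* and 0.23 beside 0.27 for *Itgal*. It had 0.41 beside 0.55 for *Itga4* in LP4 over LP1, and 0.54 beside 0.66 for *Itgav* in LP1 over UI.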

How the results depend on the processing

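The 9 members in 3 comparisons under 9 alternatives gave 243 ratios. Of these, 178 stayed within the counting interval of the main ratio and 65 moved outside it, 24 of them in LP4 over UI. None of the called ratios of *Cd44* and *Itgav* changed sign, and 8 ratios near 0 did, those of *Icam1*, *Itga4* and *Itgal*. The called ratios lay near -1 and scaling moved ratios by at most 0.21, so their sign could hardly change. The count of members higher by 1.5-fold went from 0 to 1 (*Itgam*) in LP4 over UI and in LP4 over LP1 with TMM and with median-of-ratios scaling. Under these scalings 26.5% and 27.8% of all genes tested were higher in LP4 over UI, and 19.4% and 20.5% in LP4 over LP1. With a fold of 2 the lower members went from 2 to 1 in both comparisons, *Cd44* over UI and *Itgav* over LP1. The share of all genes past a fold of 2 was not counted. The median log2 ratio of the members became 0.052 and 0.056 (LP1 over UI), 0.13 and 0.17 (LP4 over UI), and 0.14 and 0.17 (LP4 over LP1) with TMM and median-of-ratios scaling. With the mean over cells of each cell's share it was -0.13 for LP4 over UI and -0.0028 for LP4 over LP1. With at least 20 UMIs in place of 10 CPM, genes past 1.5-fold among all genes numbered 2092, 7189 and 6268 for LP1 over UI, LP4 over UI and LP4 over LP1, against 531, 3465 and 2758. The median share of cells with a member UMI was 28.7%, 30.05% and 29.1% at 2000 UMIs in UI, LP1 and LP4. In the same order it moved to 16.6%, 17.0% and 17.1% at 1000 UMIs and 51.1%, 49.5% and 46.7% at 4000 UMIs. Without thinning it was 57.3%, 75.1% and 75.2%. At 4000 UMIs 1753 UI, 133 LP1 and 133 LP4 cells were left out, so the UI value there is from its deeper cells. The member at the median differed between libraries and depths. The alpha subunit shares of *Itgam*, *Itgav* and *Itga5*, examined under settings chosen after seeing the data, stayed within their counting intervals. The other subunit shares were not examined in this way. No paired analysis was possible because each condition has 1 library. Depth limits the small clusters: in G and H counting intervals are wide.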
